A study of Homo sapiens with 3 samples.

Results

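Chromosome 14 held 1630 of the 52667 H3K27ac regions and 1066 of the 35241 TEAD regions listed on chromosomes 1 to 22 and X. Members were all peaks whose chromosome column read 14, in hg19 coordinates, whatever their strength, so no measured value chose them. The cells were 786-O, an established line from a human clear cell renal carcinoma, with no treatment named in the labels. The series has 3 libraries of this line, a ChIP-seq library for acetylated H3 lysine 27, one for TEAD, and input DNA. Each group had 1 library, so differences below have no replicate check and carry no test. The intervals cover only counting error or, where stated, the spread over regions. The input library was not analysed here except as far as a control enters the values of the peak caller.

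TEAD proteins bind DNA and need a co-activator, chiefly YAP or TAZ of the Hippo pathway, to switch genes on; much of their occupancy in epithelial cells lies at distal enhancers. Acetylation of lysine 27 on histone H3 marks active enhancers and promoters, and a TEAD site that carries it sits in chromatin in an active state. Chromosome 14 is acrocentric, with a short arm made of repeats and ribosomal genes. Its long arm carries HIF1A, which encodes a subunit of the hypoxia-inducible factor, AJUBA and SAV1 of the Hippo pathway, NFKBIA, an inhibitor of NF-κB, and FOS of the AP-1 family. Loss of this arm is frequent in clear cell renal carcinoma. Regions were not assigned to these genes, because no hg19 gene map was used here, and they are given by position only.

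For each peak the authors deposited a fold enrichment at the summit, which is the position of highest read pileup, and a −log10 p. The pileup and the local background against which the caller compared it were solved from this pair, with a whole-number pileup for 100% of the peaks. The background is the number of reads the caller expected at the summit, and it cannot fall below a floor, which was 1.45 reads for H3K27ac and 1.30 reads for TEAD. The median summit pileup on chromosome 14 was 25 reads in both lists, against 24 on the other chromosomes. TEAD regions are called marked where they and an H3K27ac region have 1 bp or more in common. At this depth an unmarked region is one without a called H3K27ac peak, not one shown to lack acetylation.

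The regions of chromosome 14 resembled those of the other chromosomes in size and strength. Median H3K27ac width was 978 bp (interquartile range 516 to 1885 bp) against 948 bp elsewhere, and median TEAD width was 477 bp (357 to 625 bp) against 462 bp. H3K27ac summits had a median fold of 6.80, against 6.54 elsewhere. For TEAD the median was 7.27, against 7.13 elsewhere. H3K27ac regions covered 2450 kb of the chromosome and TEAD regions 565 kb. There were 0.65 TEAD regions per H3K27ac region (95% interval 0.61 to 0.71), against 0.67 on the other chromosomes, which placed chromosome 14 at position 14 of 23.

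Density along the chromosome was uneven, with crowded and nearly empty steps next to each other. The first H3K27ac region started at 19650070 and the first TEAD region at 20810490, and neither list had a region nearer the start of the chromosome. Summits were counted in steps of 5 Mb from position 1. The step from 65 to 70 Mb was the most acetylated, with 224 H3K27ac regions, or 44.8 per Mb (95% counting interval 39.1 to 51.1). It ranked 13 among the 605 such steps of the 23 chromosomes, whose median was 81 regions. The step from 50 to 55 Mb followed with 170 H3K27ac regions and held the most TEAD regions, 119 (23.8 per Mb, 19.7 to 28.5). Steps from 100 to 105 Mb, from 70 to 75 Mb and from 20 to 25 Mb held 156, 134 and 130 H3K27ac regions.

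Of the 19 steps with any region, 4 were sparse, with fewer than 20 regions of either list. They ran from 15 to 20, 25 to 30, 40 to 45 and 45 to 50 Mb and together held 29 H3K27ac and 24 TEAD regions. The longest stretches free of both lists lay from 25620882 to 30106511 (4.49 Mb), from 45722481 to 50052175 (4.33 Mb) and from 82000733 to 85907089 (3.91 Mb). The central part from 50 to 80 Mb, picked out after the counts had been seen, held 819 H3K27ac regions (50.2%) and 556 TEAD regions (52.2%). Across the 15 steps with at least 20 regions of each list, the counts of the H3K27ac and TEAD lists followed each other closely (Pearson r = 0.92, Spearman rho = 0.93). These points come from the same pair of libraries and are a description only. The last step, from 105 Mb, is cut short by the end of the chromosome. Its last H3K27ac region ended at 107254079, and its counts were not scaled.

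**Figure D1:**
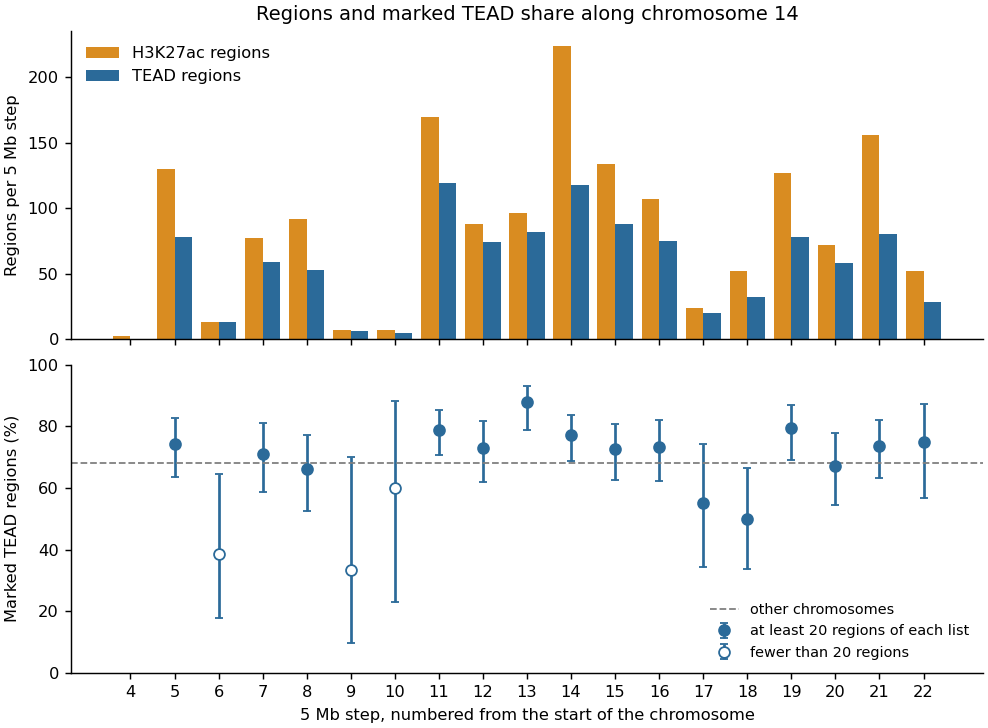
Upper panel, number of H3K27ac and TEAD regions in each 5 Mb step of chromosome 14 (step 14 spans 65 to 70 Mb); lower panel, share of TEAD regions marked by H3K27ac with 95% Wilson intervals, open symbols for steps with fewer than 20 regions, dashed line at 68.3% for the other chromosomes. Step 14 has 224 H3K27ac regions, and the marked share is highest in step 13, at 87.8%. Step 22 is cut short by the end of the chromosome.

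TEAD regions on chromosome 14 were marked more often than the average of the series. H3K27ac overlapped 783 of the 1066 TEAD regions, a share of 73.5% (95% Wilson interval 70.7 to 76.0%), where 68.4% of all TEAD regions were marked. The other chromosomes together reached 68.3% (67.8 to 68.7%), 5.20 percentage points lower. Only chromosome 22 had a higher share, 75.4% (72.2 to 78.3%), and its interval overlapped that of chromosome 14. So did the intervals of several chromosomes below it, among them 19 (72.0%, 69.3 to 74.6%) and 11 (71.6%, 69.4 to 73.8%), so position 2 of 23 is not resolved. With the TEAD summit required to lie inside H3K27ac, 662 regions counted, 62.1% against 55.1% elsewhere and 55.3% over the series, and chromosome 14 was again at position 2 of 23. Neighbouring regions are not independent, so the intervals may be too narrow.

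The higher share appeared in most deciles of TEAD fold, but within single deciles it was not resolved. In 9 of 10 deciles of TEAD fold the marked share was higher on chromosome 14 than elsewhere, with the eighth decile as the exception (63.7% against 69.7%). In the decile of lowest fold it was 82.0% (74.5 to 87.6%) against 75.4%. In the decile of highest fold it was nearly equal, 83.5% against 83.3%. The interval of chromosome 14 included the share elsewhere in every decile of fold. By quintile of recovered background it was lower than elsewhere in the lowest quintile, 35.8% (28.8 to 43.4%) against 41.4%. In the other 4 quintiles it was higher, reaching 89.9% (85.4 to 93.1%) against 85.0% in the highest. When the other chromosomes were reweighted to the TEAD widths and backgrounds found on chromosome 14, the difference was 3.31 percentage points.

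**Figure D2:**
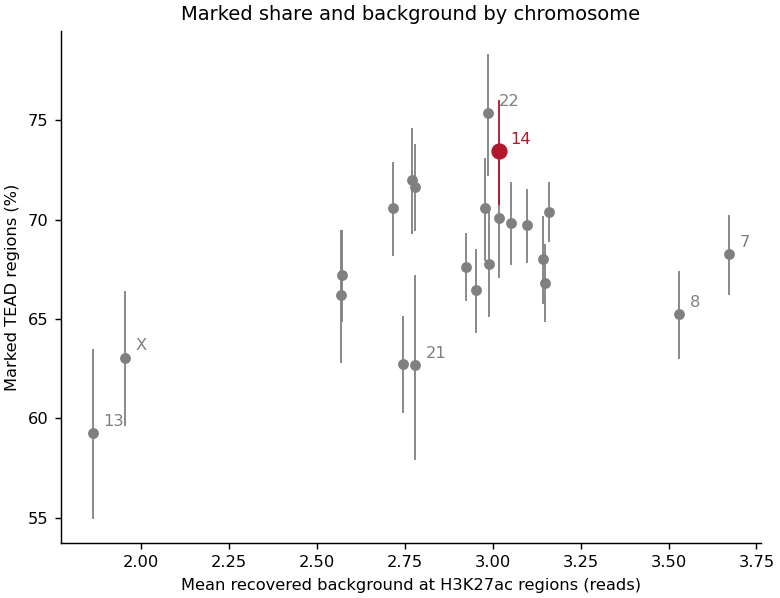
Each point is a chromosome: mean recovered background at its H3K27ac regions (reads) against the share of its TEAD regions marked by H3K27ac, with 95% Wilson intervals; chromosome 14 is in red. Chromosome 14 lies at 3.02 reads and 73.5%, close to chromosome 22 and far from chromosomes 13 and X.

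The marked share ranged more widely over the steps of chromosome 14 than over whole chromosomes, though each step rests on fewer regions. Among the 15 steps read, the marked share ran from 50% (33.6 to 66.4%) between 85 and 90 Mb to 87.8% (79.0 to 93.2%) between 60 and 65 Mb, with intervals that did not overlap. The step from 60 to 65 Mb, with 72 of 82 TEAD regions marked, ranked 5 among the 514 steps of the series with at least 20 TEAD regions. Of these 82 regions, 45.1% lay in a single acetylated domain described below, and without it the share was 77.8% (63.7 to 87.5%). High shares were also found from 90 to 95 Mb (79.5%, 69.2 to 87.0%), from 50 to 55 Mb (79.0%, 70.8 to 85.3%) and from 65 to 70 Mb (77.1%, 68.8 to 83.8%). The interval lay above the series' 68.4% in 4 steps and below it in 1.

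Low shares were found from 80 to 90 Mb and in the pooled sparse steps, but not in most steps that border the sparse ones. From 80 to 85 Mb 11 of 20 TEAD regions were marked (55.0%, 34.2 to 74.2%), and from 85 to 90 Mb 16 of 32. The 4 sparse steps had 10 marked TEAD regions of 24 (41.7%, 24.5 to 61.2%). Of the steps beside them, those from 20 to 25, 30 to 35 and 50 to 55 Mb lay above the series' share, at 74.4%, 71.2% and 79.0%, and the step from 35 to 40 Mb lay below it at 66.0%. Leaving out the steps one at a time moved the share of the whole chromosome between 72.3% (without 60 to 65 Mb) and 74.2% (without 85 to 90 Mb). Across the 15 steps the marked share went with the mean background at TEAD regions (Pearson r = 0.73, Spearman rho = 0.76) and with the number of H3K27ac regions (r = 0.57, rho = 0.60). Marked TEAD regions of the chromosome had a mean background of 3.06 reads and unmarked ones 2.22. The marked share and the mean background of a step are therefore not independent quantities. The part of background and of region number in the differences between steps was not tested.

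The recovered background of chromosome 14 was close to that of the rest of the genome. Its mean at H3K27ac regions was 3.02 reads, against 2.97 on the other chromosomes, a ratio of 1.02 (95% interval over regions 0.998 to 1.04, which includes 1). That interval reflects the spread between regions of 1 library and is not a test. Neighbouring regions are not independent, so it may be too narrow. The mean put chromosome 14 at position 8 of 23, between the 3.67 reads of chromosome 7 and the 1.86 of chromosome 13. The medians were 2.82 reads on chromosome 14 and elsewhere. At TEAD regions the mean was 2.83 reads against 2.72, a ratio of 1.04. At the floor sat 37 H3K27ac regions, 2.27% (1.65 to 3.11%), where 6.33% of all H3K27ac regions did. The median of the other 22 chromosomes was 3.36%, and 8 of them had a lower share than chromosome 14. On chromosomes 13 and X the floor held 47.8% and 44.3%. In the TEAD list 35 regions of chromosome 14 were at the floor, 3.28% (2.37 to 4.53%), against 6.03% of all.

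Along the chromosome the background at H3K27ac regions varied, but within the range usual for steps of the series. Mean background at H3K27ac regions was lowest from 85 to 90 Mb, 2.5 ± 0.14 reads (SE over 52 regions), and highest from 50 to 55 Mb, 3.39 ± 0.10 reads (SE over 170 regions), a ratio of 1.36. All 15 steps lay within 2.01 to 3.50 reads, the range that holds the middle of the 542 steps of the series between the percentiles 10 and 90. From 50 to 80 Mb every step had a mean between 3.05 and 3.39 reads. The steps from 90 to 95 Mb, 95 to 100 Mb and from 105 Mb to the end were lower, at 2.87, 2.65 and 2.66 reads. The last of these held 8 of the 37 H3K27ac regions at the floor. In the TEAD list the step means ran from 2.43 ± 0.13 (30 to 35 Mb) to 3.24 ± 0.12 reads (60 to 65 Mb). The steps with the H3K27ac extremes lay close to these, at 2.45 ± 0.22 (85 to 90 Mb) and 3.19 ± 0.20 reads (50 to 55 Mb). Whether the extremes of the lists fell in different steps is therefore not resolved. The TEAD mean was 2.95 ± 0.14 reads from 100 to 105 Mb and 2.76 ± 0.12 reads from 70 to 75 Mb. Over the 15 steps the means of both lists were correlated (r = 0.76, rho = 0.79). The mean at H3K27ac regions also went with the number of H3K27ac regions (r = 0.59, rho = 0.64). DNA copy number was not measured, and the floor and the chromatin at the peaks enter these values, so they are not copy numbers.

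**Figure D3:**
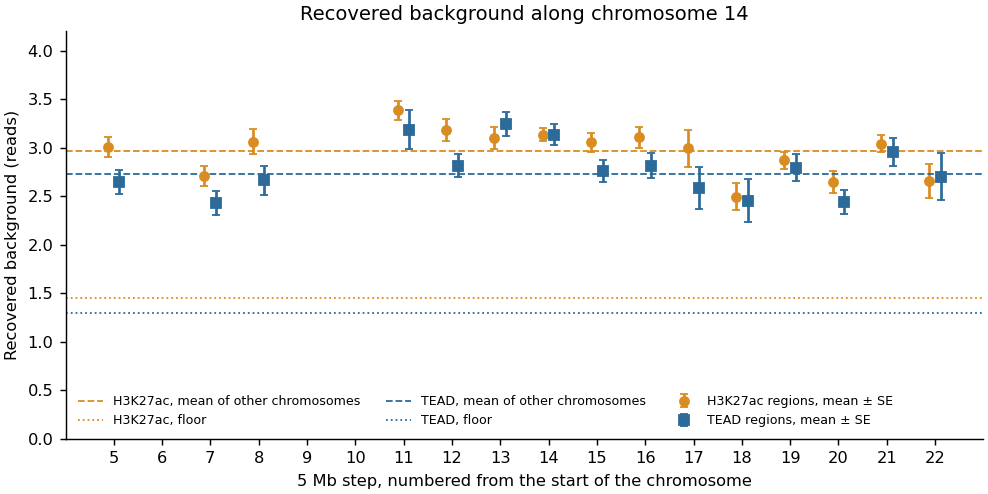
Mean recovered background in reads (± SE over regions) at H3K27ac and TEAD regions in the 15 steps of chromosome 14 with at least 20 regions of each list; dashed lines are the means of the other chromosomes and dotted lines the floors. Step means at H3K27ac regions run from 2.5 to 3.39 reads around the 2.97 of the other chromosomes.

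Read from the acetylation side, chromosome 14 was ordinary as a whole, while its steps differed from each other. A TEAD region overlapped 674 of the 1630 H3K27ac regions, 41.3% (39.0 to 43.8%), where 41.7% of all H3K27ac regions had one. Of the 674, 564 carried 1 TEAD region, 81 carried 2 and 29 carried 3 or more. H3K27ac regions with TEAD had a median width of 1753 bp and a median fold of 10.1. Those without had a median of 650 bp and 5.36-fold. Mean log2 fold differed by 0.75 ± 0.04 (SE) on chromosome 14 and by 0.64 ± 0.01 (SE) elsewhere. TEAD enrichment had a median of 7.33-fold at marked and 7.17-fold at unmarked regions. The mean log2 difference was 0.08 ± 0.06 (SE) on chromosome 14 and 0.17 ± 0.01 (SE) elsewhere. The read counts behind these folds were less alike. Marked TEAD regions of chromosome 14 had a median pileup of 27 reads and a mean background of 3.06 reads. Unmarked ones had 21 and 2.22 reads. Elsewhere the values were 27 and 2.93 reads for marked and 21 and 2.29 reads for unmarked regions.

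Among the 15 steps with at least 20 regions of each list, the 2 lowest shares of H3K27ac regions with TEAD were found from 65 to 70 Mb, the most acetylated step, and from 100 to 105 Mb, and they were not separable. From 65 to 70 Mb, 70 of 224 H3K27ac regions carried TEAD, 31.3% (25.5 to 37.6%). All H3K27ac regions of the series, taken at the same widths, would give 42.8%. From 100 to 105 Mb the share was 31.4% (24.6 to 39.1%), against 41.7% at the same widths. Such low shares also occurred elsewhere. Of the 542 steps of the series with at least 20 H3K27ac regions, 7.20% lay below the step from 65 to 70 Mb. For the step from 100 to 105 Mb it was 7.93%. The highest share was found from 55 to 60 Mb, where 49 of 88 H3K27ac regions carried TEAD (55.7%, 45.3 to 65.6%). The 46.2% at the same widths lay inside that interval, so the excess is not resolved. From 30 to 35 Mb the share was 48.1% (37.3 to 59.0%), against 38.1% at the same widths, which is not resolved either. TEAD regions from 55 to 60 Mb were marked in 73.0% of cases, near the chromosome's average. Few TEAD regions per H3K27ac region and frequent marking occurred together from 65 to 70 Mb, where 91 of 118 TEAD regions were marked.

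**Figure D4:**
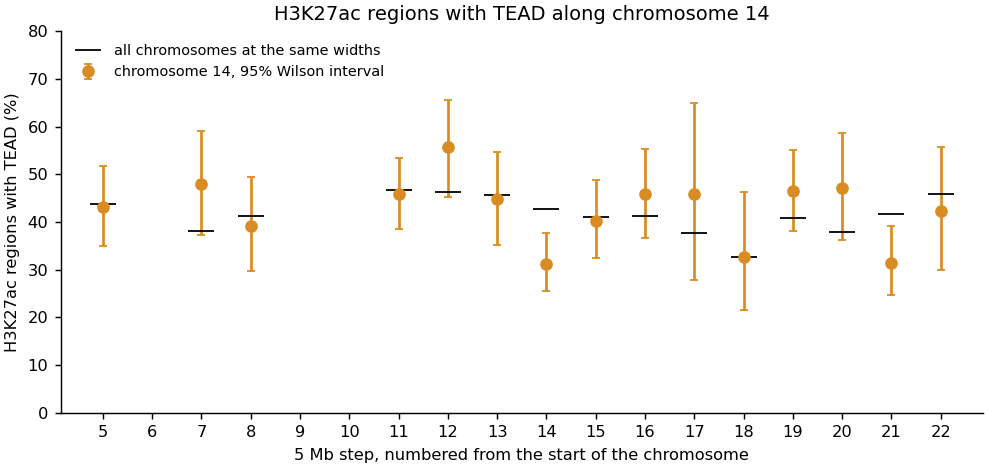
Share of H3K27ac regions overlapped by TEAD in the steps of chromosome 14 with at least 20 regions of each list (points, 95% Wilson intervals) and the share that regions of the same widths have over all chromosomes (black dashes). Steps 14 and 21, at 31.3% and 31.4%, have intervals wholly below their dash.

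Acetylated regions of chromosome 14 formed 668 domains when neighbours were joined over short gaps, at the distance customary for stitching enhancers. Each domain of the genome was scored by summing fold × width over its regions, and those past the bend of the ranked curve are called large. On chromosome 14, 31 domains were large, 4.64% (3.29 to 6.51%), where 3.82% of all domains were. Each of the 31 held TEAD, with a median of 5 regions, and together they held 205 TEAD regions, 19.2% of the chromosome's total. Among the 637 other domains 54.3% held TEAD. The large domains were longer, with a median span of 38.9 kb, where the others had 2.17 kb. Between 60 and 70 Mb lay 10 of the large domains. The steps from 60 to 65 and from 65 to 70 Mb held 96 and 224 of the chromosome's 1630 H3K27ac regions. Single H3K27ac regions carried TEAD in 36.8% of cases (31.8 to 42.2%) inside large domains and in 42.5% (39.8 to 45.2%) outside them. Apart from the share of domains that were large and the region counts of steps, these values have no counterpart from other chromosomes here. None of them can therefore be called particular to chromosome 14.

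The largest domain of the genome by this ranking lay on chromosome 14, from 61927711 to 62089925. It spanned 162 kb. Its score was 1.22 times that of the second domain of the genome and 2.30 times that of the next domain on the chromosome. H3K27ac covered 77.6% of it with 29 regions, of which 11 carried TEAD. All 37 of its TEAD regions were marked, which the choice of an acetylated domain largely sets. The widest H3K27ac region, from 62012651 to 62058208, measured 45558 bp and was the widest of the series, the next being 37179 bp. Its summit reached 33.4-fold. It carried 16 TEAD regions, more than any other H3K27ac region of the series, where the next highest count was 11. A wider region has more room for TEAD regions. Per 10 kb of H3K27ac the whole domain held 2.94 TEAD regions, where the large domains of the chromosome ran from 0.65 to 4.85.

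TEAD enrichment inside this domain was high at several separate summits. The strongest TEAD region, from 62027979 to 62029094 within the widest H3K27ac region, had 210 reads over a background of 4.21 and a fold of 40.5 (counting interval 35.2 to 46.3). A second TEAD region in the same H3K27ac region, from 62047771 to 62048531, reached 35.0-fold (29.1 to 41.8). Another, at the other end of the domain from 61938389 to 61939682, reached 34.3-fold (28.4 to 41.2). The 3 intervals overlapped, so their order is not resolved. Of the 37 TEAD regions 17 reached at least 10-fold, and the weakest had 4.32-fold. Their median was 8.87-fold. All marked TEAD regions of the chromosome had a median of 7.33-fold and an upper quartile of 11.8-fold. The share of all TEAD regions that reached 10-fold was not counted. Mean background was 3.44 reads at the domain's H3K27ac regions and 3.35 at its TEAD regions.

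**Figure D5:**
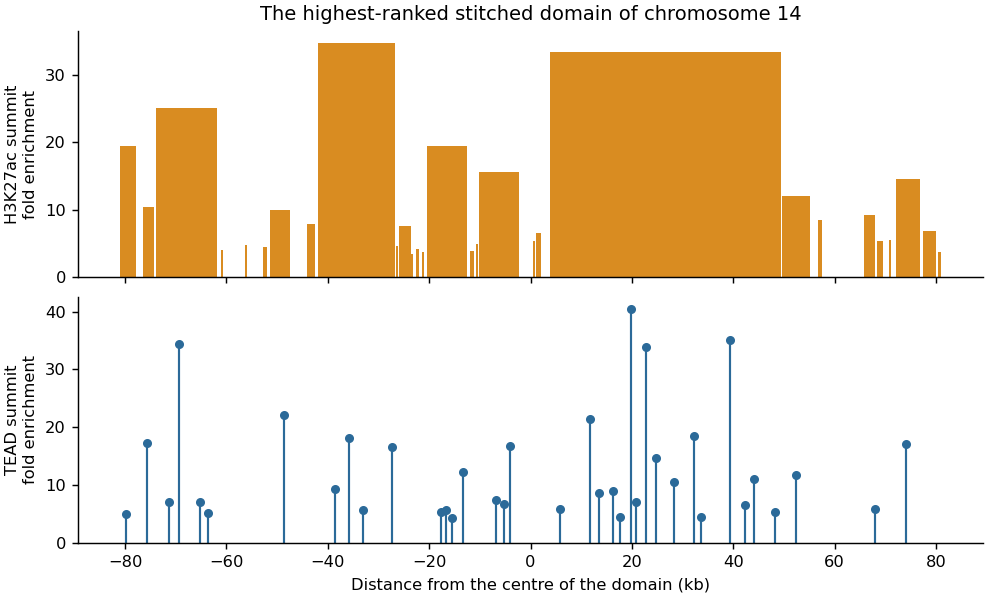
Regions of the highest-ranked domain against the distance from its centre (kb): bars span the H3K27ac regions and their height is the fold enrichment at the summit, stems mark TEAD summits and their fold. The 45558 bp H3K27ac region to the right of the centre carries 16 of the 37 TEAD regions, among them the strongest at 40.5-fold.

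A run of 5 large domains followed between 68541790 and 69452339, within 911 kb. The strongest of them, from 68541790 to 68758990, ranked 11 in the genome and spanned 217 kb with 45 H3K27ac regions but only 13 TEAD regions. Next came the domain from 68968157 to 69172898 at rank 63, with 42 H3K27ac and 18 TEAD regions. The domain from 69229331 to 69291735 ranked 90 and held 12 H3K27ac and 5 TEAD regions, none above 9.41-fold. In the 5 domains 31 of 121 H3K27ac regions carried TEAD (25.6%, 18.7 to 34.1%), against 39 of 103 in the rest of the 65 to 70 Mb step (37.9%, 29.1 to 47.5%). The median H3K27ac width was 845 bp inside these domains and 909 bp in the rest of the step. Counted from end to end, with the gaps between the domains included, the run held 58 TEAD regions, up to 46.6-fold. Of these 53 were marked, a count that the choice of a run of acetylated domains largely sets. The other domain among the 5 highest of the chromosome, from 74163447 to 74232688, ranked 71 with 10 H3K27ac and 8 TEAD regions.

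The strongest TEAD region of the chromosome, from 103575983 to 103577015, ranked 13 in the TEAD list. It had 288 reads at the summit over a background of 2.10 and a fold of 93.1 (82.7 to 104), inside an H3K27ac region of 3188 bp and 23.2-fold. The strongest H3K27ac region of the chromosome, from 103587375 to 103592557, lay in the same domain, at rank 194, with the summits 13.8 kb apart. It reached 45.6-fold (38.8 to 53.2) and ranked 7 in the H3K27ac list, but the stronger of its 2 TEAD regions had 8.29-fold. The counting interval of the 93.1-fold region lay above those of all other TEAD regions of the chromosome named here.

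The next TEAD regions were close to each other in strength. A region from 74299565 to 74300771 reached 64.0-fold (56.2 to 72.5) inside H3K27ac of 9432 bp. Another, from 93509502 to 93510302, reached 60.9-fold (52.5 to 70.2) with its summit just outside an H3K27ac region. The regions from 35070064, 100040492, 60560838, 23449576 and 53477613 followed at 58.1-, 56.2-, 56.0-, 54.6- and 53.5-fold. The region at 23449576 to 23450416 sat in an H3K27ac region of 10308 bp that is a large domain by itself and holds 5 TEAD summits. At the region from 53477613 to 53478257, by contrast, H3K27ac was 780 bp wide and 9.52-fold. Apart from the first, the intervals of the 10 strongest regions overlapped along their order. Nearly every step had a strong TEAD region: the highest fold of a step was at least 33.7 in 16 of the 18 steps with TEAD. The exceptions were 20.9-fold from 25 to 30 Mb and 10.4-fold from 40 to 45 Mb.

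Both remaining members of the 10 strongest lacked a called H3K27ac region. The region from 56023762 to 56024439 had 195 reads and 51.5-fold (44.6 to 59.2), and the nearest H3K27ac region lay 21.7 kb away. The one from 81608174 to 81608858 reached 50.9-fold (44.0 to 58.6), only 0.13 kb from H3K27ac. Further unmarked TEAD regions lay from 54573502 to 54574229 (49.9-fold, 1.51 kb from H3K27ac), from 103660482 to 103661122 (39.6-fold, 3.54 kb) and from 81700488 to 81701167 (34.3-fold, 11.3 kb). Over all 283 unmarked TEAD regions of the chromosome the median distance to H3K27ac was 12.6 kb, against 14.3 kb elsewhere. Within 5 kb lay 90 of them, 31.8% (26.7 to 37.4%), where 29.9% of all unmarked TEAD regions did.

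Among H3K27ac regions, the strongest after the one already described lay near the end of the chromosome, from 105556404 to 105561000, with 40.9-fold (34.1 to 48.6). The regions from 77491390 to 77496055, from 24663814 to 24666004 and from 93795117 to 93800264 reached 40.7-, 38.8- and 36.7-fold, with overlapping intervals. Each of the 5 strongest carried at least 1 TEAD region. The strongest TEAD on them ranged from 6.76- to 23.2-fold, so none of the 10 strongest TEAD regions sat on them.

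TEAD summits inside H3K27ac lay beside the acetylation summit more often than on it. The median distance between both summits was 400 bp on chromosome 14 (interquartile range 253 to 769 bp), as on the other chromosomes (252 to 691 bp). Within 150 bp of the H3K27ac summit lay 9.21% of the 662 TEAD summits (7.24 to 11.7%), against 11.1% elsewhere. The 121 marked TEAD regions with the summit outside H3K27ac had a median of 8.70-fold, against 7.11-fold for those with the summit inside.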

How the data were processed

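H3K27ac and TEAD chromatin immunoprecipitation was profiled in 786-O cells, 1 library each, beside 1 input library. Reads went through fastp, Bowtie2 2.4.5 and MACS2 on hg19, the names listed in the submitters' processing notes; the sources used here give no parameters, threshold or control. The values per peak are the authors': the deposited fold ratio at the summit, the deposited −log10 p and −log10 q, the summit offset, and a deposited score that was not used. The lowest −log10 q on chromosome 14 was 2.14 for H3K27ac and 2.26 for TEAD. Library depth is unknown here.

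Pileup k and background b were solved from fold = (k + 1)/(b + 1) and the Poisson upper tail, within 0.002 of the −log10 p. The solver and the overlap code were tested on simulated data. Peaks on chromosome Y were left out (183 and 123). Shares have 95% Wilson intervals and pileups exact 95% Poisson intervals; PCR reads without molecular identifiers are not independent molecules. A region within 0.5% of the lowest background counts as at the floor. Python 3.11.15, pandas 2.3.3 and scipy 1.17.1 were used. Regions named are the 10 strongest TEAD, the 5 strongest unmarked TEAD and the 5 strongest H3K27ac regions, the 5 highest domains, the strongest TEAD region per step, the 3 longest empty stretches and regions with a background over 10 reads; other regions were chosen after their values were seen. Members, lists and steps were chosen with earlier results of these data known. The planned gene lists and the motif search need an hg19 annotation and sequence and were not used.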

Additional observations from a re-analysis of the deposited data

How the results depend on the processing

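Of 43 alternative values, 34 stayed within the interval of the value reported or, for counts, within 1.5 times of it. Of the 43, 11 were added after the data had been seen. The 43 are not independent, because settings of the marked share count both as the share and as its difference from elsewhere. Without chromosomes 13 and X the marked share of chromosome 14 could not change, yet it counts among the 34. The marked share was higher on chromosome 14 than elsewhere in all 10 alternatives, by 3.31 to 7.0 percentage points. Its level was 66.1% with fold of at least 5 in both lists, 62.1% with the TEAD summit inside H3K27ac and 62.4% with an overlap of at least 0.5 of the TEAD region; stricter definitions count fewer regions by construction. Without the regions from 60 to 70 Mb it was 71.6%. The share of H3K27ac regions with TEAD was 31.7% when the summit had to lie inside, against 30.3% elsewhere. With fold of at least 5 there were 0.74 TEAD regions for each H3K27ac region, against 0.79 elsewhere. The background ratio was 1.04 over TEAD regions, 0.99 over H3K27ac regions above the floor and 1.00 without chromosomes 13 and X. The share at the floor was 3.28% in the TEAD list and 3.44% within 5% of the floor, against 6.12% and 8.62% elsewhere. With steps shifted by 2.5 Mb the highest marked share was 87.5% (47.5 to 52.5 Mb) and the lowest 43.5% (37.5 to 42.5 Mb), so the position of the extremes depends on where steps begin. The domain from 61927711 ranked first under both alternatives for domains, which gave 38 large domains (gap of 5 kb) and 36 (−log10 q of at least 5). No paired analysis was possible because each group has 1 library.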

Other observations

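The recovered background exceeded 10 reads at 32 TEAD regions of the series, and 2 of these lay on chromosome 14. The region from 50053079 to 50053571 had 71 reads at the summit over a background of 17.5 and 3.88-fold, and the region from 50329291 to 50329601 had 56 reads over 18.9 and 2.86-fold. Both touched H3K27ac regions whose own background was 6.33 and 4.23 reads. No H3K27ac region of the chromosome exceeded 10 reads. The highest H3K27ac background, 8.47 reads, was at the region from 62221092 to 62223753, which carried a TEAD region of 36.7-fold.

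The unmarked TEAD region farthest from acetylation lay from 85907090 to 85907372, at the edge of an empty stretch, 494 kb from the nearest H3K27ac region and with 6.09-fold.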
